A study of Mus musculus with 24 samples.

Results

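The heat shock proteins and chaperones measured in the mouse hippocampus were 79 of 19938 genes. They were chosen by symbol. Taken were the HSP90, HSP70, HSP110 and small heat shock protein genes, and the mitochondrial chaperonin Hspd1 and Hspe1. The DNAJA, DNAJB and DNAJC co-chaperones were included, as were the genes named Cct2 to Cct8, the class of the cytosolic chaperonin TRiC. That class holds the dim Cct6b and Cct8l1 (mean signals 5.10 and 5.06). It leaves out the TRiC subunit Tcp1, whose symbol does not match and which was listed with the TRiC partners. The rule itself used no measured value, but it was set with earlier results of these data known. A gene was read from a probe (transcript cluster) that the platform annotation ties to 1 gene symbol, and where several such probes existed, from the one with the highest mean over all 24 arrays. The position of a probe in the genome was not looked up, so the probe used may lie outside the gene's own locus. Probe numbers run by chromosome among the members. By that order the probes used for Hspa8, Hsp90aa1, Hspd1, Hspb1 and Dnaja1 fall among those of other chromosomes. Each of these genes has another probe, not used, numbered next to members on its own chromosome. After learning, that other probe moved the opposite way only for Hspa8. The classes held 2 HSP90, 3 HSP110, 10 HSP70 and 8 small heat shock protein genes, 2 mitochondrial chaperonin genes, 9 TRiC genes, and 4 DNAJA, 13 DNAJB and 28 DNAJC genes.

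The study crossed genotype, wild type (WT) or FoxO6 null, with state, and each of the 4 groups had 6 Affymetrix Mouse Gene 1.0 ST arrays. All mice were males of 8 to 9 weeks on a C57BL/6J-129sv mixed background, and FoxO6 belongs to the FoxO branch of forkhead transcription factors. Basal mice came from single housing of at least 3 days. Learning mice were handled every day, met the empty arena for 10 min on the day (24 h) before the task, explored a pair of identical objects there for 10 min, and gave tissue 60 min later. The task, the handling, the housing and the stay in the procedure room differed together between the states, so their parts in any difference cannot be told apart, and no source used here says whether basal and learning arrays were processed side by side. The labels name the arrays of a group biological replicates without saying that each came from its own animal, so a p-value here is set against the spread of these samples alone.

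Molecular chaperones bind unfolded or misfolded proteins and help them fold, cross membranes or be taken apart. HSP70 proteins do so in cycles of ATP hydrolysis that DNAJ proteins start and that nucleotide exchange factors such as the HSP110 proteins renew, and HSP90 and TRiC receive many of their clients. Heat shock factor 1 raises the inducible members after proteotoxic stress through repeats of the unit GAA and its complement, and in the endoplasmic reticulum (ER) the unfolded protein response does so through the ER stress element. In neurons chaperones are known for folding actin and tubulin, for uncoating clathrin vesicles and for keeping vesicle fusion proteins in a working state.

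The start regions of 7 members are shown first, in 6 sequences, as examples of the elements by which chaperone genes are known to be induced. All 7 were called higher after the task in WT, so they do not stand for the members at large. Dnajb6, which holds a run of 3 heat shock element units and was not called after the task, is not shown. Whether these elements bear on the differences was not tested. The sequences come from RefSeq (mouse build GRCm38.p6), run 5′ to 3′ on the strand of the gene, and carry the matches in capitals. The windows ran from 250 bases before to 50 bases after an annotated start, and 65 of the 79 members had one. The capitals mark GAANNTTC in Hspa1a and Hspb1, which is a pair of heat shock element units, and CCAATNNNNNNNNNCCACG, the ER stress element, in Hspa5, Hsp90b1 and Dnajc3. In the stretch shared by Hspd1 and Hspe1 they mark a run of such units. The windows shown are Hspa1a at chr17:34972157-34972406 (minus strand), Hspb1 at chr5:135887669-135887918 (plus strand), Hspa5 at chr2:34771840-34772089 (plus strand), Hsp90b1 at chr10:86705618-86705676 (minus strand) and Dnajc3 at chr14:118937807-118937865 (plus strand). The sixth lies at chr1:55087933-55088147 (plus strand, the direction of Hspe1). It is all of the 215 bases between the start of Hspe1 and 1 annotated start of Hspd1, which are read in opposite directions. Another annotated start of Hspd1, at 55088243, lies beyond the Hspe1 start at 55088148.
Hspa1a: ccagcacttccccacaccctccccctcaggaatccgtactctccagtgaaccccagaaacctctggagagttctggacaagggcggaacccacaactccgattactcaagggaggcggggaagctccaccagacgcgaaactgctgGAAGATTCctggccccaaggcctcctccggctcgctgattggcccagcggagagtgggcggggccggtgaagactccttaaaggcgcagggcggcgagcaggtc
Hspb1: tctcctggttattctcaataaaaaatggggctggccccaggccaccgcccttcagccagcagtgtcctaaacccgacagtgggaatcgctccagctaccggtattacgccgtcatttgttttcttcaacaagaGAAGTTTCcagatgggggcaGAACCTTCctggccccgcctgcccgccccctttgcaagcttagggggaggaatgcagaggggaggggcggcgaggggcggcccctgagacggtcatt
Hspa5: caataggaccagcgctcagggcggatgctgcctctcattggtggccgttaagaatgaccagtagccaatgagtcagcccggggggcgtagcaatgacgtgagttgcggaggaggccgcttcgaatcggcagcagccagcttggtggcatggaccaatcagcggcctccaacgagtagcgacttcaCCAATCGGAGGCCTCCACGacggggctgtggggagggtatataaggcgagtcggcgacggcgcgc
Hsp90b1: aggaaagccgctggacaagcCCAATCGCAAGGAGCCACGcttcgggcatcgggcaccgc
Dnajc3: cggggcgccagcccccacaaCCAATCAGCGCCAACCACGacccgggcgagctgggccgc
Hspd1-Hspe1: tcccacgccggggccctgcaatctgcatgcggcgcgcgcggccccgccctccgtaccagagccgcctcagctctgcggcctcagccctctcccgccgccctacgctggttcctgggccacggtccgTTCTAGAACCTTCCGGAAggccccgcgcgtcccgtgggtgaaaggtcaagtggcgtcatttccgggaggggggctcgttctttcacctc

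The ER stress element, searched on both strands, stood in 3 of the 65 members with a window (4.62%), which were Hspa5, Hsp90b1 and Dnajc3, and in 37 of 27025 genes with a window (0.137%). This element was chosen after the sequences had been seen. In Hspa5 the match ran from 65 to 47 bases before the start, in Dnajc3 from 105 to 87, and Hsp90b1 had 1 match on each strand, the one shown running from 212 to 194. A pair of heat shock element units, GAANNTTC or TTCNNGAA on either strand, stood in 19 members (29.2%) against 17% of all genes with a window. A run of 3 contiguous alternating units, which contains overlapping pairs, stood in 4 members (6.15%), Hspd1, Hspe1, Dnajb6 and Hsph1, against 0.662% of all. Hspd1 and Hspe1 share the same stretch, which was counted for both genes here and among the pairs. The FoxO motif TGTTTAC stood in 3 members (4.62%), Dnajc10, Dnajc6 and Dnajb12, against 4.05% of all. The cAMP response element TGACGTCA stood in 1 member, Dnajc27 (1.54%), against 2.03%, and CCAAT stood in 28 members (43.1%) against 41.1%. A match describes letters in these windows and is not a site, and no test was made of these shares.

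Foxo6, the targeted gene, was lower in the mutant arrays in both states, by −0.73 at basal (log2, adjusted p = 0.000128, limma) and by −0.63 after learning (adjusted p = 0.000833). No source used here places its probe relative to the part of the gene that was altered. Within groups, pairs of arrays correlated at 0.991 to 0.997 across genes. A log2 difference is a difference in RMA signal on the log2 scale throughout, and a gene is called at an adjusted p under 0.05 from limma over all 19938 genes.

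After the object learning task, chaperone RNA was higher in both genotypes. The mean signal over the 79 genes ran from 8.38 to 8.43 (log2) in the 6 WT basal arrays and from 8.51 to 8.62 in the 6 WT learning arrays. In the mutant it ran from 8.37 to 8.41 at basal and from 8.51 to 8.61 after learning, and no learning array reached down to a basal one in either genotype. In WT, 47 of the 79 members were called (59.5%), against 43.3% of all genes, with 41 higher (51.9%, all genes 25.1%) and 6 lower (7.59%, all genes 18.2%). In the mutant, 42 were called (53.2%, all genes 41.3%), with 35 higher (44.3%, all genes 22.6%) and 7 lower (8.86%, all genes 18.7%). With both genotypes averaged, 52 were called (65.8%, all genes 54.8%), 43 higher (all genes 31.7%) and 9 lower (all genes 23.1%). The median difference of the members was 0.15 in WT and 0.13 in the mutant, against 0.03 in each genotype over all genes. Many genes were called in the hippocampus as a whole, and the chaperone genes differed from that background mostly in direction, with a larger share higher and a smaller share lower.

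**Figure D1:**
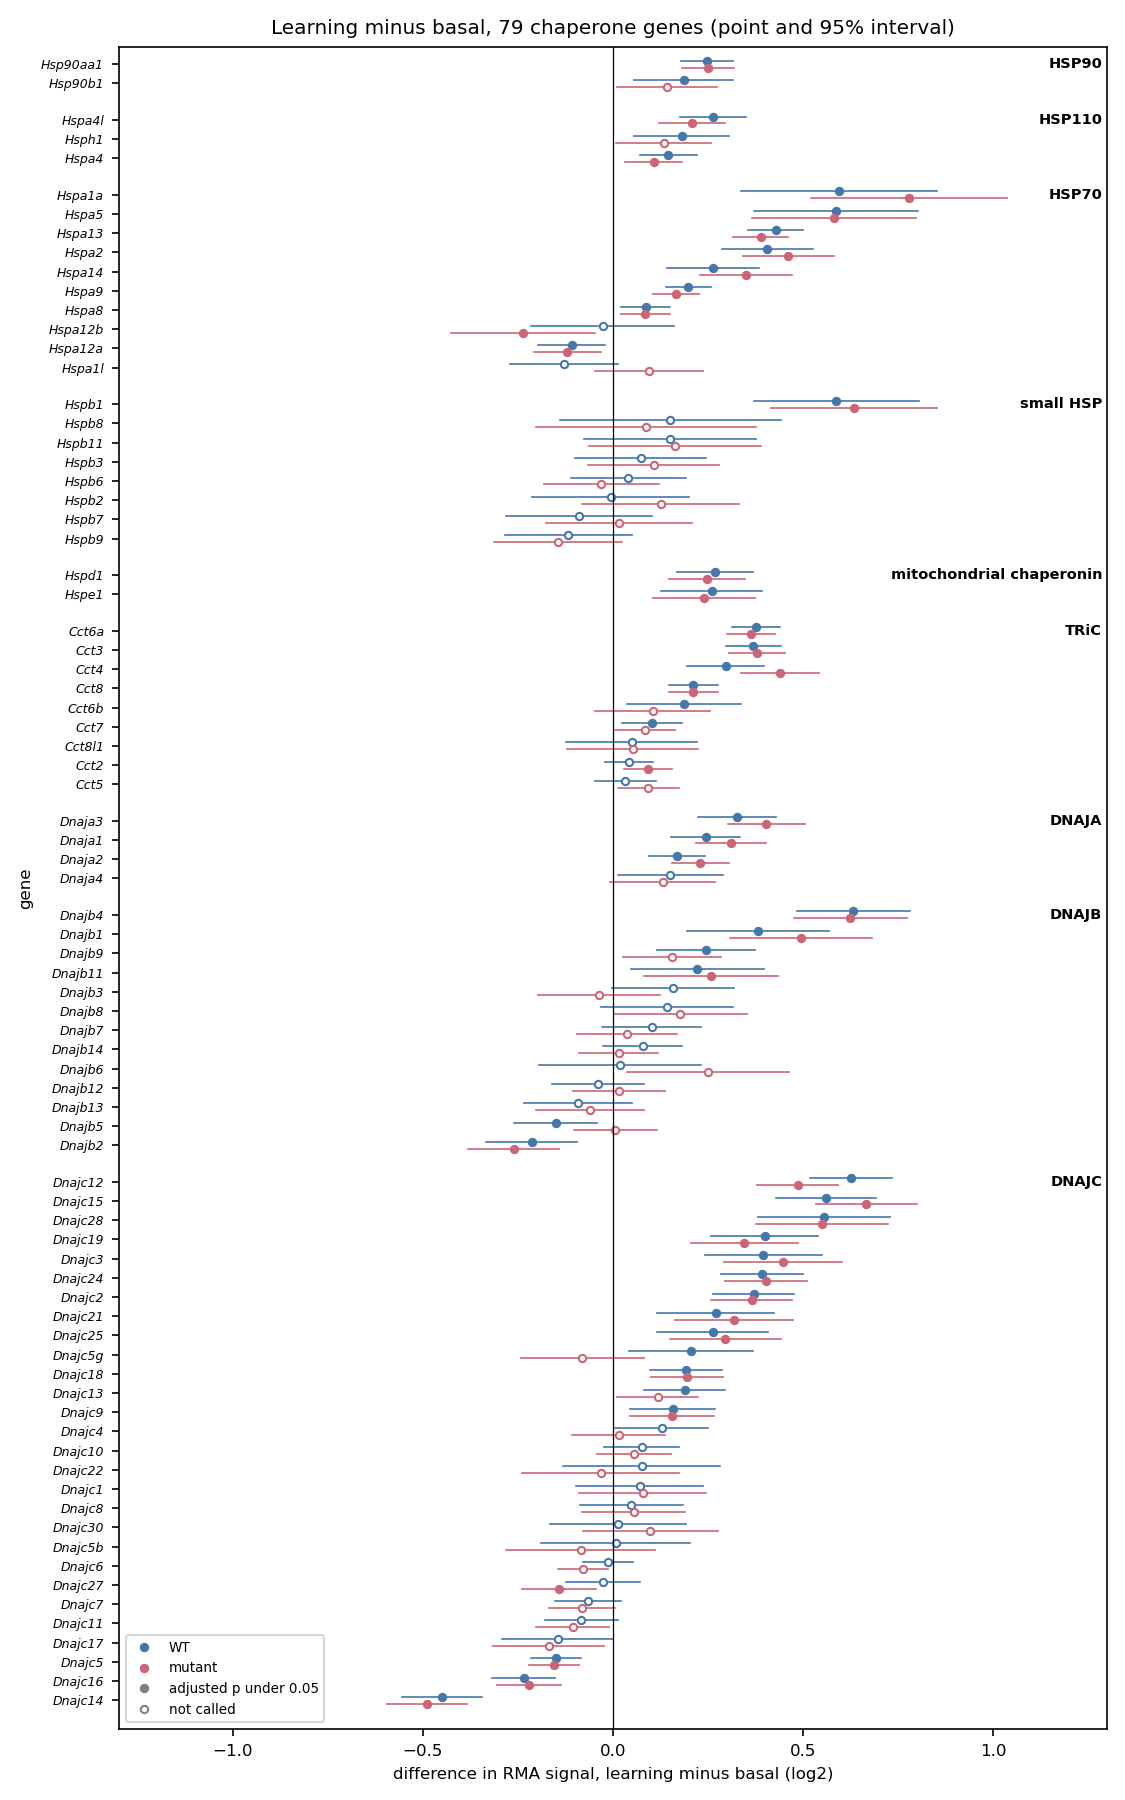
Difference in RMA signal after learning minus basal (log2, x axis) for each of the 79 chaperone genes, by class; blue points are WT and red points the mutant, lines are 95% intervals, and filled points have an adjusted p under 0.05. Most points lie to the right of 0 in both genotypes, with 41 called higher and 6 lower in WT and 35 higher and 7 lower in the mutant.

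Every learning array lay above every basal array for 28 members in WT (all genes 13.8%) and for 26 in the mutant (all genes 10.9%). The reverse held for 3 members in WT (all genes 11.4%) and for 4 in the mutant (all genes 11.8%). In both genotypes at once 22 members were separated upward (all genes 8.6%) and 3 downward (all genes 9.07%), and the 3 were Dnajc14, Dnajc16 and Dnajc5. The median of the members' mean signals was 8.73 against 6.91 over all genes, and brighter genes were called more often, so the shares were also taken within 4 bins of equal size by mean signal. In the brightest bin, which held 44 members, 63.6% of members and 40.8% of all genes were called higher in WT, and 11.4% of members and 30.8% of all genes lower. In the next bin, with 17 members, 58.8% were higher against 30.6%, and 5.88% lower against 28.7%. The mutant gave 54.5% higher against 37.7% and 11.4% lower against 32.9% in the brightest bin. The lean to higher values was thus present among genes of like signal in the brighter bins, while the dimmer bins held 8 and 10 members and few calls.

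**Figure D2:**
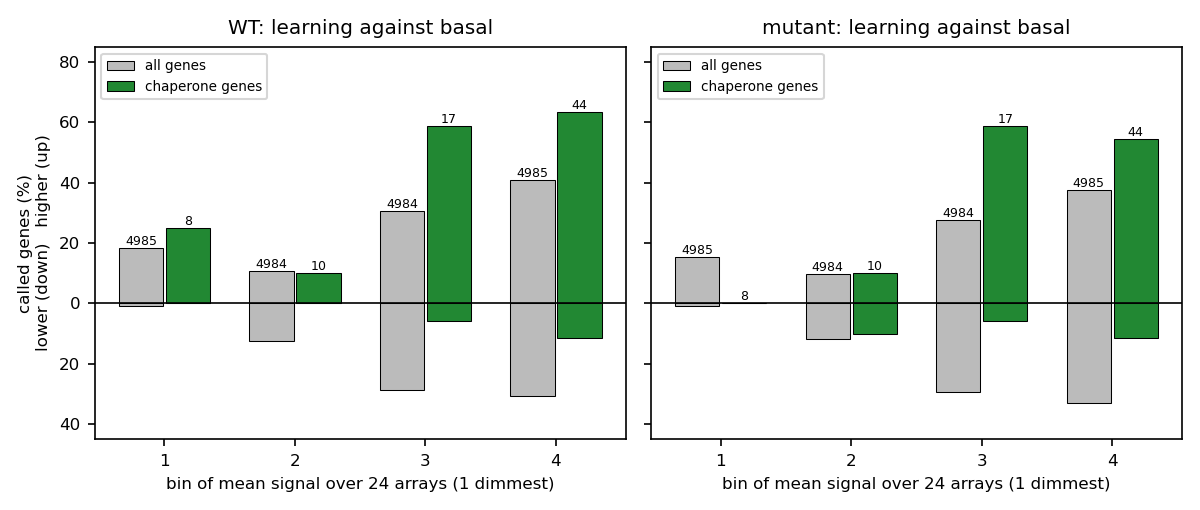
Percent of genes called higher (bars up from 0) or lower (bars down from 0) after learning, in 4 bins of mean signal (x axis, 1 dimmest), for WT (left) and the mutant (right); green bars are chaperone genes, grey bars all genes, and the number above a bar is the number of genes in it. In the brightest bin the green bars reach 63.6% up and 11.4% down in WT, the grey ones 40.8% and 30.8%.

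HSP90 proteins hold signalling proteins such as kinases and steroid receptors in a form that can be activated. Hsp90aa1, the stress-inducible cytosolic form, read 12.59, 12.63 and 12.72 (lowest, median and highest of 6 arrays, log2) in WT basal and 12.84, 12.90 and 12.94 in WT learning arrays. In the mutant it read 12.56, 12.64 and 12.73 at basal and 12.83, 12.86 and 13.02 after learning. All learning arrays lay above all basal arrays in each genotype, with a narrow spread. The difference was 0.25 in WT (SE 0.0334, 1.19-fold, adjusted p = 4.16e-07) and 0.25 in the mutant (adjusted p = 3.77e-07), while the 3 probes of the gene rose by 0.25, 0.13 and 0.23 in WT. The exact two-sided permutation test gave p = 0.002165, the smallest it can give, in each genotype (0.006184 adjusted over 20 tests of 5 genes). Hsp90b1, the ER form also called GRP94, had differences of 0.19 in WT and 0.14 in mutants (adjusted p = 0.019 and 0.0752), and its groups overlapped in both. The WT call of Hsp90b1 rested on arrays 1 and 2 of WT learning, at 11.82 and 11.75 against 11.38 to 11.44 in the other 4. Without array 1 its difference was 0.13 (adjusted p = 0.0766) and without array 2 it was 0.14 (adjusted p = 0.0693). Hsp90ab1, the constitutive cytosolic form, had no probe with a single symbol and was not analysed here.

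The 3 HSP110 genes encode exchange factors that let HSP70 release its client. Hspa4l read 9.96, 10.02 and 10.14 in WT basal and 10.22, 10.31 and 10.36 in WT learning arrays, and 9.95, 10.05 and 10.16 in mutant basal and 10.22, 10.24 and 10.41 in mutant learning arrays. Basal and learning arrays were again fully apart in both genotypes. The difference was 0.26 in WT (SE 0.0426, adjusted p = 6.99e-06) and 0.21 in the mutant (adjusted p = 0.000175), with an exact permutation p = 0.002165 in each (0.006184 adjusted over 20 tests). Hspa4 was 0.15 higher after learning in WT and 0.11 higher in mutants (adjusted p = 0.00163 and 0.0187), with overlapping groups. The mutant call of Hspa4 ended without mutant basal array 3 (adjusted p = 0.0515) or 6 (adjusted p = 0.0514). Hsph1, a heat-inducible member of the class, differed by 0.18 in WT (adjusted p = 0.0164) and 0.13 in the mutant (adjusted p = 0.0799). Its WT call ended without WT learning array 1 (adjusted p = 0.0541) or WT basal array 2 (adjusted p = 0.052).

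Among the 10 HSP70 genes, 7 were higher and 1 lower in WT, and 7 higher and 2 lower in the mutant. Hspa1a, the cytosolic HSP70 that heat and proteotoxic stress induce, read 7.03, 7.23 and 7.33 in WT basal and 7.32, 7.82 and 8.12 in WT learning arrays. In the mutant it read 7.07, 7.25 and 7.31 at basal and 7.60, 7.96 and 8.51 after learning. Basal arrays were close together and learning arrays were spread widely, and 1 WT learning array, number 4, fell among the basal ones. The difference was 0.60 in WT (SE 0.126, 1.51-fold, adjusted p = 0.000252) and 0.78 in the mutant (1.72-fold, adjusted p = 7.04e-06). By the exact permutation test the values were p = 0.004329 in WT (0.01082 adjusted over 20 tests) and p = 0.002165 in the mutant (0.006184). Hspa1b is a near-identical copy, and how far this probe also reads its RNA was not tested.

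Hspa5, the ER member known as BiP that senses unfolded protein there, read 10.86, 10.95 and 11.01 in WT basal and 11.10, 11.48 and 11.88 in WT learning arrays. In the mutant it read 10.70, 10.97 and 11.16 at basal and 11.17, 11.51 and 11.85 after learning. The groups did not overlap in either genotype. The difference was 0.59 in WT (SE 0.105, adjusted p = 3.19e-05) and 0.58 in the mutant (adjusted p = 3.74e-05). Hspa13, an ER-associated member, had the smallest p of the class in WT at 0.43 (adjusted p = 3.74e-11), and differed by 0.39 in the mutant (adjusted p = 2.44e-10). Hspa2, best known from the testis, differed by 0.41 and 0.46 (adjusted p = 1.11e-06 and 1.28e-07). Both genes were fully apart between states in each genotype. Hspa9, the mitochondrial member of the import motor, rose by 0.20 and 0.17 (adjusted p = 1.79e-06 and 2.56e-05). Hspa14, which in human cells works at the ribosome with DNAJC2, rose by 0.26 and 0.35 (adjusted p = 0.000514 and 1.35e-05).

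By the probe used, the constitutive cytosolic member Hspa8, which uncoats clathrin vesicles, moved little. It read 13.08, 13.13 and 13.20 in WT basal and 13.16, 13.21 and 13.30 in WT learning arrays, and the groups overlapped. Its difference was 0.09 in each genotype (adjusted p = 0.0272 in WT and 0.0302 in the mutant). Of its other probes one gave 0.08 and 0.09, and another disagreed in direction at −0.14 in WT and −0.56 in the mutant. By its number the disagreeing probe is the one next to members on the chromosome of Hspa8. Hspa12a, a distant HSP70 relative, was the member of the class that fell in both genotypes, by −0.11 in WT (adjusted p = 0.0439) and −0.12 in the mutant (adjusted p = 0.0278). Leaving out any of 8 arrays in WT (adjusted p up to 0.138) or of 4 in the mutant (up to 0.0867) ended these calls: WT learning 1, 2, 3, 4 and 6, WT basal 3, 4 and 6, mutant learning 1 and 3, and mutant basal 4 and 5. Hspa12b, known from endothelial cells, differed by −0.24 in the mutant and −0.03 in WT (adjusted p = 0.0396 and 0.842). The mutant call of Hspa12b ended without mutant learning array 2, 4 or 5 or mutant basal array 4, 5 or 6 (adjusted p from 0.0712 to 0.102). Hspa1l, best known from the testis, was not called in WT at −0.13 (adjusted p = 0.139) or in the mutant at 0.09 (adjusted p = 0.295).

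Small heat shock proteins bind unfolding proteins without ATP and hold them for HSP70. Only Hspb1, of 8 members, was called in either genotype. It read 6.34, 6.65 and 6.75 in WT basal and 7.06, 7.12 and 7.44 in WT learning arrays, and 6.52, 6.67 and 6.82 in mutant basal and 6.94, 7.34 and 7.64 in mutant learning arrays. Every learning array was above every basal array of its genotype. The difference was 0.59 in WT (SE 0.106, adjusted p = 3.58e-05) and 0.63 in the mutant (adjusted p = 1.23e-05), and a second Hspb1 probe rose by 0.63 and 0.68. Hspb8, which works with Bag3 in autophagy, had the widest spread of these, from 6.81 to 7.83 in WT basal arrays, and differed by 0.15 (interval −0.14 to 0.44). The other 6 differed by −0.12 to 0.15 in WT and by −0.14 to 0.16 in the mutant.

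**Figure D3:**
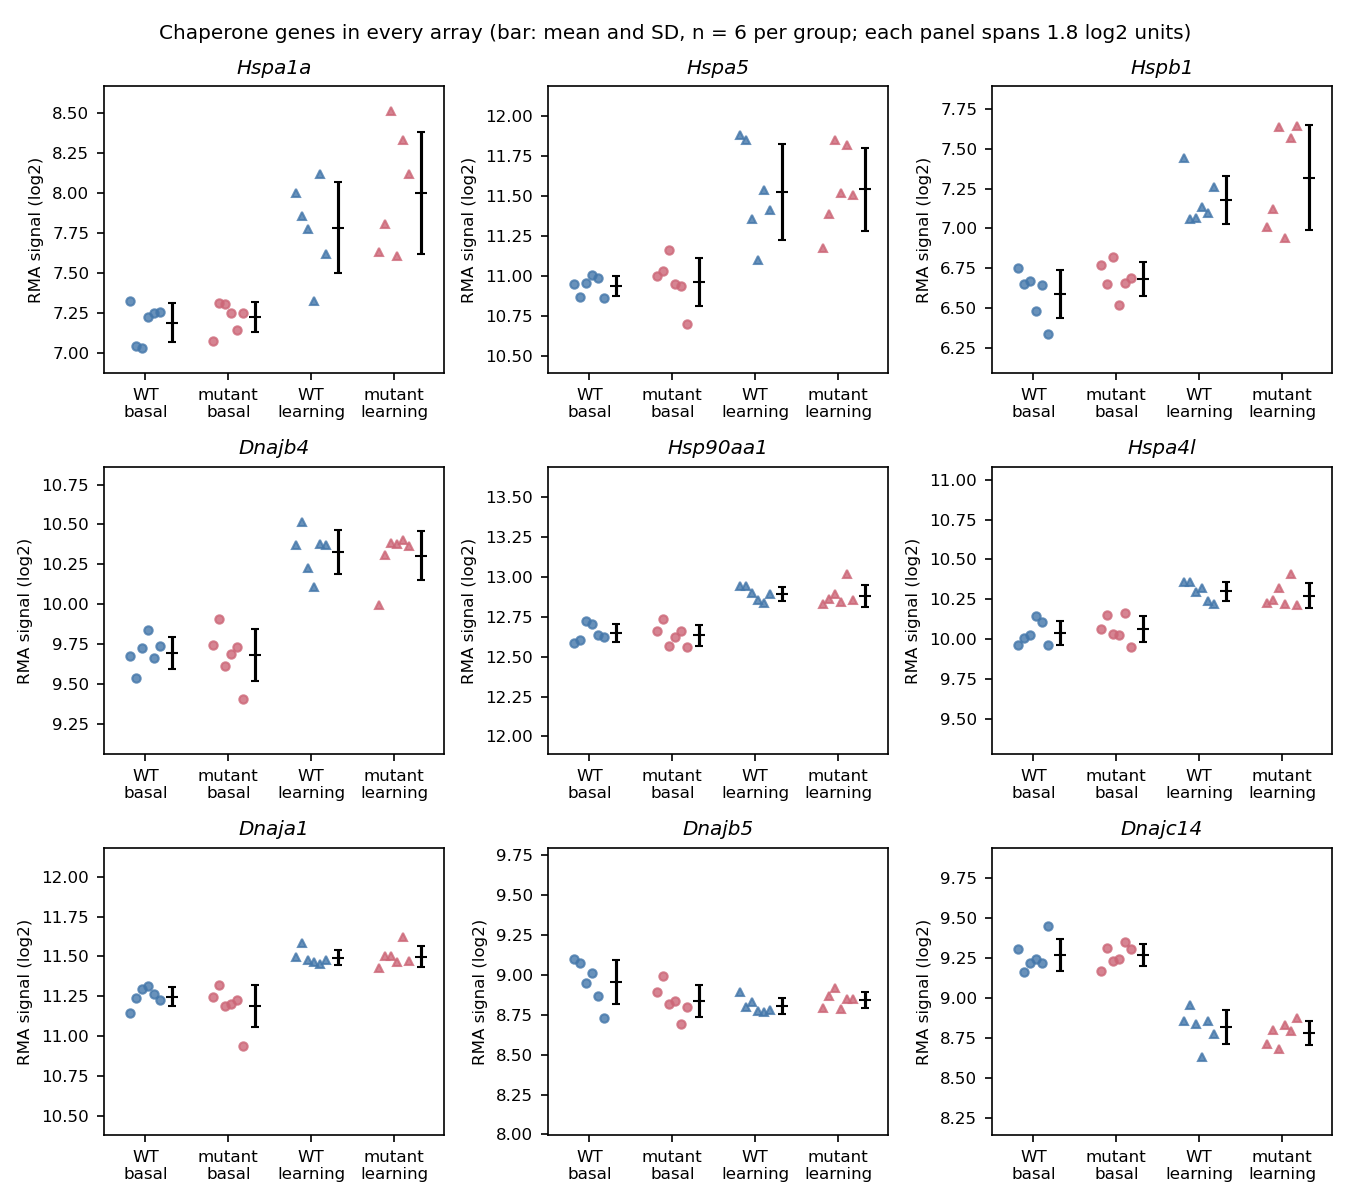
RMA signal (log2, y axis) of 9 chaperone genes in every array, by group on the x axis; circles are basal and triangles learning arrays, blue is WT and red the mutant, bars are mean and SD of 6 arrays, and each panel spans the same height. Hspa5, Hspb1, Dnajb4, Hsp90aa1, Hspa4l and Dnaja1 are higher in all learning arrays of each genotype, Hspa1a in all but 1 WT array, Dnajc14 is lower in all, and Dnajb5 overlaps.

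Hspd1 and Hspe1 encode the barrel and the lid of the chaperonin that folds proteins in the mitochondrial matrix. They are read in opposite directions, with the 215 bases printed above between the Hspe1 start and 1 annotated start of Hspd1. Hspd1 rose by 0.27 in WT and 0.25 in the mutant (adjusted p = 3.72e-05 and 0.00012). Hspe1 rose by 0.26 (adjusted p = 0.00165) and by 0.24 (adjusted p = 0.00354), close to the values of Hspd1. Groups did not overlap in WT for either gene and overlapped in the mutant for both, where the lowest learning array, number 1, was under the highest basal array. TRiC is the double ring in the cytosol that folds actin and tubulin. Of 9 genes of this class all had differences above 0 in both genotypes, and 6 were called higher in WT and 5 in the mutant. Cct6a read 10.60, 10.64 and 10.68 in WT basal and 10.93, 11.02 and 11.09 in WT learning arrays, with no overlap and a difference of 0.38 (SE 0.0311, adjusted p = 3.75e-11), and 0.36 in the mutant (adjusted p = 7.3e-11). Cct3 differed by 0.37 and 0.38 (adjusted p = 8.97e-10 and 5.15e-10), Cct4 by 0.30 and 0.44, and Cct8 by 0.21 in each. The remaining genes of the class moved less, and Cct5 and Cct2 differed by 0.03 and 0.04 in WT (adjusted p = 0.548 and 0.274).

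DNAJ proteins bring clients to HSP70 and start its ATP hydrolysis. In the DNAJA class, 3 of 4 were higher in each genotype and none was lower. Dnaja1 read 11.15, 11.25 and 11.31 in WT basal and 11.45, 11.48 and 11.58 in WT learning arrays, and 10.94, 11.21 and 11.32 in mutant basal and 11.43, 11.49 and 11.62 in mutant learning arrays. States did not overlap in either genotype. The difference was 0.24 in WT (SE 0.0446, adjusted p = 3.95e-05) and 0.31 in the mutant (1.15e-06), with an exact permutation p = 0.002165 in each (0.006184 over 20 tests). Dnaja3, the mitochondrial member, rose by 0.33 and 0.40 (adjusted p = 2.71e-06 and 8.18e-08).

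In the DNAJB class 4 of 13 were higher and 2 lower in WT, and 3 were higher and 1 lower in the mutant. Dnajb4 moved most, at 9.53, 9.70 and 9.84 in WT basal and 10.11, 10.37 and 10.51 in WT learning arrays, and at 9.41, 9.71 and 9.90 in mutant basal and 9.99, 10.37 and 10.40 in mutant learning arrays. The groups did not overlap in either genotype, with differences of 0.63 in WT (SE 0.0727, 1.55-fold, adjusted p = 2.47e-08) and 0.62 in the mutant (adjusted p = 3.09e-08). Dnajb1, the main heat-inducible DNAJ protein of the cytosol, rose by 0.38 in WT (adjusted p = 0.00103) and 0.49 in the mutant (adjusted p = 4.89e-05). Its WT groups overlapped, as WT learning array 4, at 8.62, lay among basal arrays. Of the ER members, Dnajb9 differed by 0.25 in WT (adjusted p = 0.00205) and, just outside the threshold, by 0.15 in the mutant, and Dnajb11 by 0.22 and 0.26 (adjusted p = 0.0364 and 0.0158). The mutant call of Dnajb11 ended without mutant learning array 5 (0.20, adjusted p = 0.0583). Dnajb2, a neuron-enriched member that hands clients to the proteasome, fell by 0.21 in WT and by 0.26 in the mutant (adjusted p = 0.00362 and 0.000536).

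Dnajb5, a cytosolic DNAJ protein, was called after learning in WT and not in the mutant. It read 8.73, 8.98 and 9.10 in WT basal, 8.77, 8.79 and 8.89 in WT learning, 8.69, 8.83 and 8.99 in mutant basal and 8.79, 8.85 and 8.92 in mutant learning arrays. The WT basal arrays reached highest and spanned the widest range, and all groups overlapped. The difference after learning was −0.15 in WT (SE 0.0532, adjusted p = 0.0219) and 0.01 in the mutant (adjusted p = 0.94). By exact permutation these had p = 0.03896 in WT (0.08658 adjusted over 20 tests) and 0.8939 in the mutant. The WT call ended without WT basal array 1 (adjusted p = 0.0713) or 2 (adjusted p = 0.0657). The test of the difference between the genotypes' responses gave 0.16 (limma, adjusted p = 1), so the responses are not shown to differ.

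The DNAJC class, whose members share little beyond the J domain, held the largest fall, that of Dnajc14, with 13 of 28 higher and 3 lower in WT and 11 higher and 4 lower in the mutant. Dnajc12, which binds the aromatic amino acid hydroxylases, read 7.96, 8.12 and 8.17 in WT basal and 8.64, 8.73 and 8.80 in WT learning arrays, far apart, a difference of 0.63 (SE 0.0524, adjusted p = 5.17e-11), and 0.49 in the mutant (adjusted p = 7.23e-09). Dnajc15 and Dnajc19 belong to the motor that pulls proteins into mitochondria, and rose by 0.56 and 0.40 in WT (adjusted p = 2.7e-08 and 1.77e-05) and by 0.67 and 0.35 in the mutant (adjusted p = 9.84e-10 and 0.000124). Dnajc3, the ER protein known as P58IPK, rose by 0.40 and 0.45 (adjusted p = 7.2e-05 and 1.35e-05). Dnajc2, a ribosome-associated member, rose by 0.37 in each genotype, and Dnajc24, which takes part in making diphthamide on elongation factor eEF2, by 0.39 and 0.40. Dnajc28 rose by 0.56 and 0.55 (adjusted p = 2.98e-06 and 3.46e-06).

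The members that fell were fewer, and 3 of the 6 in WT and 4 of the 7 in the mutant belonged to this class. Dnajc14, an ER membrane protein known for carrying a dopamine receptor to the surface, read 9.17, 9.23 and 9.45 in WT basal and 8.63, 8.85 and 8.95 in WT learning arrays, and 9.17, 9.27 and 9.35 in mutant basal and 8.68, 8.79 and 8.87 in mutant learning arrays. No learning array of either genotype reached a basal one. Dnajc14 differed by −0.45 in WT (SE 0.0516, 0.732-fold, adjusted p = 2.32e-08) and −0.49 in the mutant (adjusted p = 4.91e-09). Dnajc16 fell by 0.23 and 0.22 (adjusted p = 2.12e-05 and 5.11e-05). Dnajc5, the cysteine string protein of synaptic vesicles that keeps SNAP25 folded, fell by 0.15 in each genotype (adjusted p = 0.000301 and 0.00021), from 10.01 to 10.15 in WT basal to 9.86 to 9.97 in WT learning arrays. Dnajc6, the neuronal auxilin that works with Hspa8 on clathrin coats, was not called, at −0.01 in WT (adjusted p = 0.797) and −0.08 in the mutant (adjusted p = 0.0513). Dnajc27 was called in the mutant at −0.14 (adjusted p = 0.0162), a call that ended without mutant basal array 5 (adjusted p = 0.0531), and not in WT at −0.03 (adjusted p = 0.706).

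By compartment, grouped after the values had been seen and so given as counts, 6 of 8 ER members were called higher in WT and 4 in the mutant. The same held for 6 of 8 mitochondrial members in each genotype. Over all genes 25.1% were called higher in WT and 22.6% in the mutant. None of these members was called lower within a genotype, and 1 mitochondrial member was with genotypes averaged. The 8 ER members are not every member tied to the ER. They leave out Dnajc14, the ER membrane protein with the largest fall. Dnajc16, which also fell in both genotypes, is likewise not among the 8. The absence of lower calls thus depends on this grouping. Several ER members were highest in the same arrays. In WT learning, arrays 1 and 2 were the highest pair for 6 of 8, namely Hspa5, Hsp90b1, Dnajc3, Dnajb11, Dnajc1 and Hspa13, and array 4 was the lowest for 6 of 8. Dnajb9 and Dnajc10 had arrays 2 and 6 on top there. In mutant learning, arrays 3 and 5 were the highest pair for 5 of 8, and array 1 was the lowest for 5 of 8. The pattern was not shared by all, since array 3 was the lowest of the mutant learning arrays for Dnajc1 and Dnajc10, and Hspa13 was highest in arrays 5 and 6. The heat-inducible cytosolic genes Hspa1a, Dnajb1 and Hsph1 had the same highest pair in the mutant, arrays 3 and 5, and the fourth of these genes, Hspb1, had arrays 3 and 6 on top. In WT the highest pair differed among all 4. Array 4 was the lowest WT learning array for 3 of the 4, Hspa1a, Dnajb1 and Hsph1, as it was for most ER members. The spread among learning arrays varied from gene to gene. For Hspa5 the SD was 0.302 in WT learning against 0.061 in WT basal arrays, and 0.259 against 0.152 in the mutant. The ratio of the SD after learning to that at basal ran from 0.93 to 4.97 over the 8 ER members in WT (median 2.22) and from 0.74 to 2.01 in the mutant (median 1.33). For the 4 heat-inducible genes it ran from 0.99 to 2.44 in WT and from 1.32 to 4.03 in the mutant. Over all 79 members the median of this ratio was 1.12 in WT and 1.04 in the mutant. These patterns were chosen after the values had been seen, and what set the arrays apart was not tested.

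**Figure D4:**
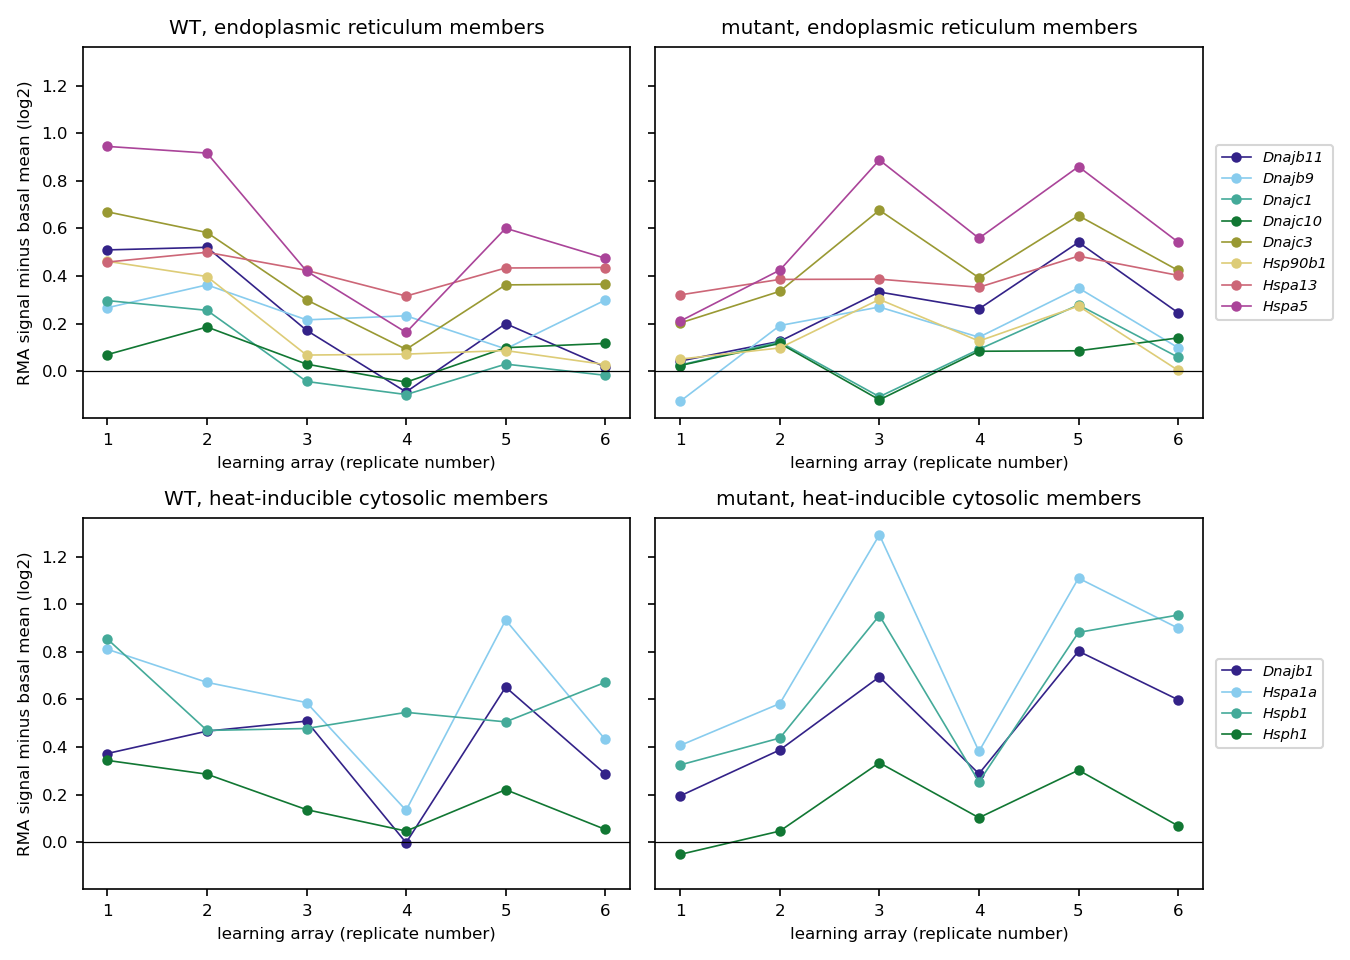
RMA signal of 8 ER members (top) and 4 heat-inducible cytosolic members (bottom) in each learning array, minus the mean of the 6 basal arrays of the same genotype (log2, y axis), by replicate number (x axis); lines join the points of a gene and imply no order of arrays. Hspa5, Dnajc3 and Dnajb11 are highest in arrays 1 and 2 of WT and arrays 3 and 5 of the mutant, and Hspa1a is highest in array 5 of WT and array 3 of the mutant.

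Between genotypes no member was called. At basal 0 of 79 passed (all genes 0.1%), after learning 0 (all genes 0.0752%) and with both states averaged 0 (all genes 0.391%), by limma. At an unadjusted p under 0.05 there were 2, 4 and 5 members in these comparisons, against 898, 1461 and 1766 of 19938 genes. Mutant minus WT differences ran from −0.19 to 0.12 at basal and from −0.27 to 0.22 after learning, with medians of −0.01 and −0.02. No member had groups that did not overlap (all genes 0.246% higher and 0.186% lower at basal, 0.191% and 0.181% after learning).

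The smallest p-values at basal belonged to Dnaja2, at −0.09, and Dnajb5, at −0.12 (limma, adjusted p = 0.9997 for both). After learning they belonged to the dim genes Dnajc5g, at −0.27 (adjusted p = 0.327), and Dnajb3, at −0.23 (adjusted p = 0.496). Hspa1a differed between genotypes by 0.22 after learning (interval −0.04 to 0.48, adjusted p = 0.738). For Hsp90aa1 the genotype difference was −0.01 in both states, with intervals of −0.08 to 0.06 at basal and −0.08 to 0.06 after learning. The exact permutation tests of the 5 genes Hsp90aa1, Hspa1a, Hspa4l, Dnaja1 and Dnajb5 between genotypes gave p from 0.1234 to 0.8463. The FoxO motif genes Dnajc10, Dnajc6 and Dnajb12 were likewise not called between genotypes, and in the averaged comparison none of them was called after learning.

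**Figure D5:**
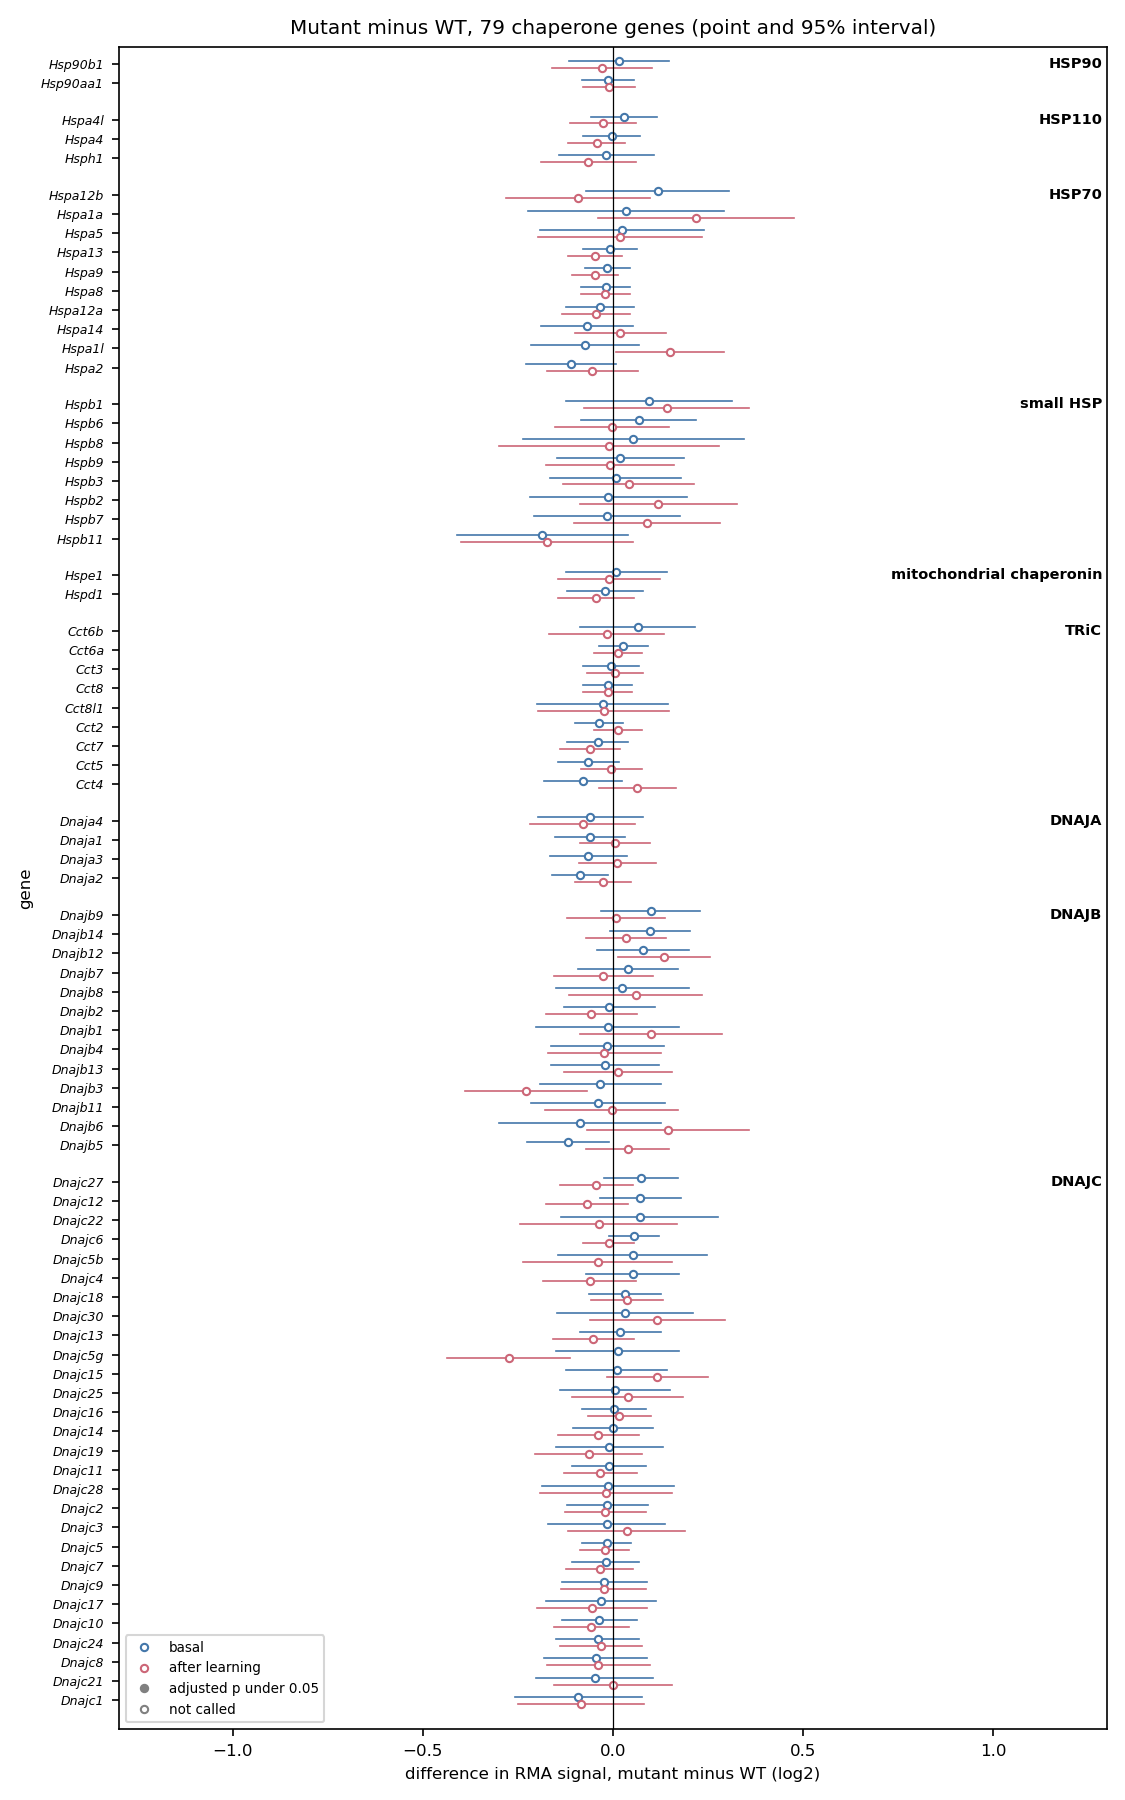
Difference in RMA signal, mutant minus WT (log2, x axis), for each of the 79 chaperone genes by class; blue points are basal and red points learning arrays, and lines are 95% intervals. All points are open because 0 of 79 genes had an adjusted p under 0.05 in either state, and they lie between −0.27 and 0.22.

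The size of the response to the task was compared between genotypes through the interaction, the learning difference in the mutant minus that in WT. No member was called by limma (all genes 0%), and 3 of 79 (3.8%) had an unadjusted p under 0.05, against 2.56% of all genes. The 3 were Dnajc5g at −0.29, Hspa1l at 0.22 and Dnajb5 at 0.16, and Dnajc5g is a relative of the cysteine string protein Dnajc5. Members called higher in both genotypes numbered 34, which is 82.9% of those called in WT and 97.1% of those called in the mutant, against 75.6% and 84% over all genes. Those called lower in both numbered 5 (83.3% and 71.4%, all genes 86% and 83.9%). None was called in opposite directions, against 3 of 19938 genes. The learning comparisons of WT and mutant share no arrays, and 69 of 79 members had the same sign in both, as had 16854 of 19938 genes. Across the 79 members the responses of WT and mutant correlated at Pearson r = 0.932 and Spearman rho = 0.909, against 0.921 and 0.885 over all genes. These are correlations across genes, which are not independent replicates.

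Regulators and partners of the chaperones, taken from lists of known genes, moved in both directions after the task. Of the heat shock factor list 5 genes were measured and Hsf1 itself was not analysed here. Hsf2 rose by 0.52 in WT and 0.44 in the mutant (adjusted p = 8.78e-07 and 1.02e-05) and the HSF1-binding Hsbp1 by 0.36 and 0.42, while Hsf4 fell by 0.27 and 0.17. Of 26 co-chaperones of HSP70 and HSP90, 12 were higher in each genotype, and 7 lower in WT and 9 in the mutant. St13, a co-chaperone of HSP70, rose by 0.42 and 0.44, and Bag5, an exchange factor, by 0.45 and 0.38. Fkbp8 fell by 0.65 and 0.74, and Bag6, which guards tail-anchored and misfolded membrane proteins, fell by 0.63 and 0.60 (adjusted p = 1.97e-14 and 6.37e-14). These falls were larger than that of any of the 79 chaperone genes.

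Of 10 prefoldin genes and TRiC partners, 6 were higher and 1 lower in WT and 5 higher and 1 lower in the mutant. This list also holds Tcp1, a TRiC subunit that the symbol rule missed. Its mean signal was 11.10 at WT basal and 11.17 after learning, and 11.09 and 11.15 in the mutant. Pfdn5, a prefoldin subunit that delivers nascent actin and tubulin to TRiC, rose by 0.94 and 0.83 (adjusted p = 2.3e-12 and 2.86e-11), and Pdcl3, a phosducin-like partner of TRiC, by 0.74 and 0.61, while Pfdn1 fell by 0.25 and 0.17. Of 19 genes of ER folding and the unfolded protein response, 9 were higher and 2 lower in WT and 7 higher and 3 lower in the mutant. The ER stress transcription factor Xbp1 rose by 0.57 and 0.54 (adjusted p = 1.26e-05 and 2.5e-05) and Herpud1, of ER-associated degradation, by 0.51 and 0.65. Hyou1, the ER HSP110, fell by 0.32 and 0.34, and the lectin chaperone Calr by 0.22 and 0.24, so the ER list was divided. Of 9 further mitochondrial folding genes, 5 were higher and 1 lower in WT and 4 higher and 2 lower in the mutant. Trap1, the mitochondrial HSP90, rose by 0.36 and 0.35 (adjusted p = 3.28e-08 and 5.21e-08), and the protease Lonp1 fell by 0.24 and 0.28.

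Markers of the cell types in the tissue also differed between states, in both directions. Of 14 hippocampal neuron markers 4 were higher and 5 lower in WT, and 2 and 5 in the mutant, with a list mean of 9.40 to 9.58 in WT basal and 9.38 to 9.51 in WT learning arrays. Of 9 astrocyte markers 2 were higher and 6 lower in WT and 1 and 6 in the mutant, and the list mean ran from 9.82 to 9.93 at WT basal and from 9.77 to 9.88 after learning. The 9 oligodendrocyte markers gave 3 higher and 2 lower in WT and 4 and 2 in the mutant, the 8 microglia markers 4 and 1 and 3 and 2, and the 9 endothelial and mural markers 1 and 3 and 1 and 4. Of 15 choroid plexus markers, a tissue beside the hippocampus, 0 were higher and 1 lower in WT and 0 and 5 in the mutant. Their mean spanned 5.85 to 6.82 in WT basal, 5.96 to 6.21 in WT learning, 6.37 to 6.86 in mutant basal and 5.92 to 6.78 in mutant learning arrays. With that mean as a covariate 41 members were called in WT and 39 in the mutant. The part of the other cell types in the chaperone differences was not tested, and in whole tissue fewer cells of a type and less RNA per cell cannot be told apart.

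Genes with and without heat shock element units in the window were set beside their response in the averaged comparison. Of the 35 members with a window that were called higher, 10 had a pair of units (28.6%) and 3 a run of 3 units (8.57%). Both counts include Hspd1 and Hspe1, which share the same stretch. Of the 23 that were not called, 8 had a pair (34.8%) and 1 a run (4.35%), and of the 7 called lower, 1 had a pair. CCAAT stood in 18 of the 35 (51.4%) and in 8 of the 23 (34.8%). The counts are small and describe windows that were seen together with the responses. The genes of the ER stress element, Hspa5, Hsp90b1 and Dnajc3, were all called higher in WT, by 0.59, 0.19 and 0.40, as were 25.1% of all genes. The WT call of Hsp90b1 ended without WT learning array 1 or 2, or with the choroid plexus covariate (limma, adjusted p = 0.0608). In the mutant the difference of Hsp90b1 (0.14, adjusted p = 0.0752) did not pass. The element was chosen after the sequences had been seen, and its part in these differences was not tested.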

How the data were processed

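RNA of 24 hippocampus samples was measured on Affymetrix Mouse Gene 1.0 ST arrays, 6 per group. The values deposited by the authors are on a log2 scale and come from RMA, per the submitters' processing notes. Background correction, equal quantiles across arrays and a summary over the features of each transcript cluster are its steps, so a shift shared by all genes can be hidden. No source used here gives its version or the chip definition. Array medians ran from 6.16 to 6.30, no values were missing (0), and the values were not transformed again. The number of arrays limits the precision, and signal over background was not used.

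Of 35511 probes, 21789 carried 1 gene symbol in the platform annotation of 2016, 1621 several and 12101 none. Probes without a single symbol were left out, among them 10 shared by a member and another symbol, which gave 19938 genes. One linear model in R 4.3.3 with limma 3.58.1 fitted the 4 group means to the 24 arrays (20 residual degrees of freedom), with eBayes and a mean-variance trend. P-values are two-sided, with Benjamini-Hochberg adjustment across the 19938 genes, and no filter on dim genes was used. The fit was first tested on simulated data of known changes. The 5 genes Hsp90aa1, Hspa1a, Hspa4l, Dnaja1 and Dnajb5 were also compared by exact permutation tests, 20 in all. Named are these 5, the called members with the largest differences, up to 3 called per class, gene list and direction with the smallest p, and the members with the smallest p where few or none were called. Other members are named by a count or were chosen after their values were seen, as were Cct2, Cct5, Cct7, Dnajc2, Dnajc6, Hspa14 and Hspb8 in places. The members and the gene lists were chosen with earlier results of these data known, so their pattern is no independent support of those results. Promoter windows and sequences are RefSeq's (GRCm38.p6). Alternatives were other scalings, fits, weights, filters and probe rules, a replicate block, choroid plexus markers as a covariate, and leaving out arrays.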

Additional observations from a re-analysis of the deposited data

Results flagged for a closer look

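In 13 of the 192 sets of 6 arrays (48 named chaperone genes in 4 groups), the highest or lowest array stood apart from the other 5 by more than 0.625 of the whole range. Chance alone marks about 1 in 20 such groups. Mutant basal array 6 was low for Dnaja1 (10.94, others 11.19 to 11.32) and Dnaja2 (10.31, others 10.47 to 10.54), both cytosolic J proteins that bring clients to HSP70. WT learning array 2 was high for Dnaja1 (11.58, others 11.45 to 11.50). WT basal array 4 was high for Dnajb1 (8.80, others 8.55 to 8.62), WT basal array 6 low for Dnajb2 (7.85, others 7.99 to 8.03) and WT basal array 2 low for Hsph1 (11.05, others 11.19 to 11.27). Mutant learning array 3 was low for Dnajb14 (8.55, others 8.77 to 8.86), and mutant learning array 1 low for Dnajb4 (9.99, others 10.31 to 10.40), a value that still lay above all mutant basal arrays. WT learning array 4 was low for Dnajc16 (9.10, others 9.25 to 9.33), and mutant basal array 1 low for Dnajc28 (6.52, others 6.80 to 6.93). Mutant learning array 6 was low for Dnajc24 (7.73, others 7.80 to 7.84) and for the dim Dnajc5g (4.48, others 4.80 to 4.99), and mutant learning array 5 was high for Hsp90aa1 (13.02, others 12.83 to 12.89). The Dnajc5g array bears on the genotype difference after learning of −0.27 that did not pass the test, and the Hsph1 array on the WT call of that gene, which ended without it.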

How the results depend on the processing

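The counts of called chaperone genes stayed within 1.5 times of those reported in all 235 alternative values, each 1 of the 7 comparisons under 1 setting. In the genotype comparisons and the interaction both counts were 0, so there the rule shows only that no call appeared. Leaving out 1 array gave 41 to 48 calls after learning in WT, 39 to 46 in the mutant and 50 to 53 with genotypes averaged, and 0 in each genotype comparison and in the interaction. A fit with a replicate block gave 47, 44 and 53 in that order. Deviations of same-numbered arrays had a median correlation of −0.0114 over 36 pairs, against −0.000655 over 180 pairs of other numbers, and 3 of 24 arrays correlated best with their own number, so the samples share only a number. A second quantile normalization gave 45, 47 and 51 calls, and the choroid plexus covariate 41, 39 and 51. Among single genes, 4754 alternative values kept direction and side of the threshold, 70 lost and 3 gained the call, and 37 changed sign, each of a value near 0 that was not called. Hsp90aa1 changed sign between genotypes at basal (0.0065 with the choroid covariate, −0.0331 to 0.0026 leaving out an array), after learning (0.0297 with the second normalization, 0.0009 with the covariate), averaged (0.0112 and 0.0037) and in the interaction (−0.0056 with the covariate, −0.0079 without WT basal arrays 4, 5 and 6, −0.0254 to 0.0217 leaving out an array). Dnaja1 between genotypes after learning was −0.0468 with the mean of its probes and −0.0187 to 0.0237 leaving out an array. Hspa4l between genotypes, averaged, was −0.0019 with the second normalization, −0.0007 with array weights and −0.0120 to 0.0127 leaving out an array. Dnajb5 after learning in the mutant was −0.0114 with the second normalization and −0.0229 to 0.0368 leaving out an array. Of 34 calls in WT picked by the naming rule (largest differences or smallest p), 30 held without any 1 array, as did 26 of 31 in the mutant. In all 47 and 42 members were called, and the rule favours the stronger calls. Weaker calls outside it, such as Dnajb11 in WT and Hspa8 in both genotypes, are not in these counts. With some called differences only near 0.10 in size, 6 arrays a group limit what can be called. The causes of these changes were not tested.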

Other observations

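Hspa8 was read by 3 probes with a single symbol, and they did not agree. The probe used gave 13.04 to 13.31 over the 24 arrays and a second gave 12.83 to 13.15. The third read 12.48 to 13.32 in 18 arrays and 11.91 to 12.16 in the other 6, with a gap of 0.31 between them. Of the 6 low arrays, 4 were mutant learning, 1 was WT learning and 1 WT basal. This probe was chosen after its values were seen, and the cause of its low values was not tested. Its differences after learning were −0.14 in WT and −0.56 in the mutant. By number it lies next to members on the gene's own chromosome, and the probe used does not. Which probe reads Hspa8 itself was not tested.

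Dnajc13, an endosomal member of the DNAJC class, was read by 15 probes whose differences after learning in WT ran from −0.23 to 0.45. The probe used gave 0.19 in WT and 0.12 in the mutant. The 2 probes of Dnajc3 held equal values in all arrays and count as 1 measurement.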
